A study of Saccharomyces cerevisiae with 24 samples.

Results

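The 10 genes described here encode the thioredoxins, thioredoxin reductases and peroxiredoxins of the budding yeast Saccharomyces cerevisiae: TRX1, TRX2, TRX3, TRR1, TRR2, TSA1, TSA2, AHP1, PRX1 and DOT5. They were taken by their systematic names, not by a cut on any measured value, from a table of 6369 genes. Earlier results of these data were known when they were chosen. All 10 were among the 5380 genes that passed the filter on low counts.

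Peroxiredoxins reduce hydrogen peroxide and organic peroxides with a reactive cysteine, and that cysteine is then returned to its reduced state by a thioredoxin. Thioredoxin carries an active site with a pair of cysteines and is itself reduced by thioredoxin reductase, which draws its electrons from NADPH. Yeast keeps a cytosolic set (Trx1, Trx2, Trr1 and the peroxiredoxins Tsa1, Tsa2 and Ahp1), a mitochondrial set (Trx3, Trr2 and Prx1) and a nuclear peroxiredoxin (Dot5). Several of these genes are known targets of Yap1, the transcription factor that responds to peroxide.

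3 pairs of these genes are near copies of each other, so the stretches that encode the active sites are shown to let the copies be compared. The letters come from the RefSeq R64 genome, on the coding strand and 5′ to 3′, and capitals mark the codons of the active site. The first 3 are the thioredoxins, with the codons from the active-site tryptophan to the second cysteine of the pair in capitals.
TRX1 (YLR043C, chrXII:231879-231965, minus strand): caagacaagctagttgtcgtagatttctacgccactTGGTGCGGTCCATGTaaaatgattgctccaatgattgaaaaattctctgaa
TRX2 (YGR209C, chrVII:913090-913176, minus strand): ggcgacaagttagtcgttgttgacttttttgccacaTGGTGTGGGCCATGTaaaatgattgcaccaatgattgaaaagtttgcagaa
TRX3 (YCR083W, chrIII:259701-259787, plus strand): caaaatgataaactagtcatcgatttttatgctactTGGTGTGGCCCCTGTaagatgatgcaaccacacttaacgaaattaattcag
The next 2 are the peroxiredoxins TSA1 and TSA2, with the codons of the peroxide-reacting cysteine and the residue on each side of it in capitals.
TSA1 (YML028W, chrXIII:220240-220320, plus strand): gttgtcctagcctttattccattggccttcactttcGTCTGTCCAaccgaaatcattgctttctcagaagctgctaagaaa
TSA2 (YDR453C, chrIV:1365480-1365560, minus strand): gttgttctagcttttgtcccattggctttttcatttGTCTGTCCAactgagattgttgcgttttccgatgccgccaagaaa
The last 2 are the reductases, with the codons of the redox-active cysteine pair and the residues between them in capitals.
TRR1 (YDR353W, chrIV:1183686-1183769, plus strand): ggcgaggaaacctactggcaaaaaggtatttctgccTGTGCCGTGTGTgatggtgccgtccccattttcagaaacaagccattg
TRR2 (YHR106W, chrVIII:326054-326137, plus strand): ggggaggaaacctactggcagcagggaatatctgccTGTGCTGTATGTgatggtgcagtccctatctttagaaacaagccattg

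Over their whole coding sequences TRX1 and TRX2 shared 73.4% of aligned bases, TSA1 and TSA2 78.5%, and TRR1 and TRR2 75.8%. The longest identical runs were 17, 14 and 20 bases, and none of the 10 genes had a stretch of 25 bases that also occurred in another annotated coding sequence. The sources used here do not say how reads that fit several genes were counted. Each of the 10 has a single coding exon and overlaps no other annotated gene. Their coding lengths run from 312 bases in TRX1 (chrXII:231702-232013), 315 in TRX2 (chrVII:912913-913227) and 384 in TRX3 (chrIII:259578-259961) to 960 in TRR1 (chrIV:1183299-1184258) and 1029 in TRR2 (chrVIII:325598-326626). The peroxiredoxins lie between them, with 531 bases in AHP1 (YLR109W, chrXII:368781-369311), 591 in TSA1 (chrXIII:220138-220728) and in TSA2 (chrIV:1365072-1365662), 648 in DOT5 (YIL010W, chrIX:334882-335529) and 786 in PRX1 (YBL064C, chrII:100371-101156).

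The genes were measured in a wild-type strain and in strains that lack RPL22A or RPL22B, the 2 genes for the ribosomal protein Rpl22. Cycloheximide, an inhibitor that stalls translating ribosomes, was added to log-phase cultures (OD 0.6 to 0.8), and 4 pools of polyA RNA were sequenced from each strain: total input, and the monosome, light polysome (PolysomeLow) and heavy polysome (PolysomeHigh) fractions of a sucrose gradient. Each of the 12 combinations of strain and pool had 2 libraries, described as biological duplicates, and the labels name no peroxide or other stress treatment. A library held 2435632 to 10947937 counts, of which 62.5 to 97.1% belonged to 7 entries of the ribosomal DNA region, leaving 314212 to 1950344 counts on other genes and 2353 to 15466 on the 10 genes. RPL22B had 1329 counts over the 8 wild-type libraries, 6354 in ΔRPL22A and 0 in ΔRPL22B. RPL22A had only 25, 3 and 40 counts, too few in the wild type to check its deletion. The strains also differ in other loci. The mating pheromone gene MFA2 had 2683 counts in the wild type against 8 and 4 in ΔRPL22A and ΔRPL22B, MF(ALPHA)1 had 11 against 27891 and 16785, LYS2 had 955 against 2 and 0, and MET17 had 0 against 824 and 788. A difference between the wild type and either deletion therefore cannot be told apart from mating type or these markers, while ΔRPL22A and ΔRPL22B share the same pattern of them. Values below are CPM, counts brought to a common library size and scaled by TMM, a factor that sets most genes equal between libraries. A level is therefore relative to most other genes of that pool. It is neither a share of all counts, most of which belonged to the ribosomal DNA entries, nor an amount per cell. A gene was called at an adjusted p under 0.05 (edgeR quasi-likelihood test, Benjamini-Hochberg over all 5380 genes of a comparison).

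In wild-type input the 10 genes fell into an abundant set of 5 and a scarce set of 5. Per kilobase of coding sequence, AHP1 had the highest level at 411 CPM, followed by TSA1 at 297, TRX1 at 88.1, TRX2 at 77.7 and TRR1 at 63.8. DOT5 followed at 7.47, TRX3 at 5.05, PRX1 at 3.71, TRR2 at 2.71 and TSA2 at 1.43. The duplicates of neighbours in that order overlapped only between TRX1 and TRX2, which had 82.1 to 94.1 and 71.3 to 84.0. Over all 6 input libraries of the 3 strains, AHP1 (348 to 443) and TSA1 (256 to 379) overlapped as well, and so did TRX2 and TRR1, DOT5 and TRX3, TRX3 and PRX1, and TRR2 and TSA2. The gap between the 2 sets was not bridged in any input library: the lowest TRR1 value was 59.9 and the highest of the scarce set was 11.02, of TRX3.

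In 2 of the 3 pairs of near copies 1 gene predominated. TSA1 exceeded TSA2 per coding length by 145 to 354 times over the 6 input libraries, and TRR1 exceeded TRR2 by 23.0 to 36.9 times. TSA2, an inducible relative of the housekeeping peroxidase TSA1, had 1 to 28 counts per library, so its values carry large counting error. TRX1 and TRX2, the remaining pair, stood close to parity. A codon adaptation index gives the likeness of a gene's codon use to that of a reference set. Here the reference was the 50 genes with the most wild-type input counts per coding length. The index ranked the abundant set above the scarce set, but with no gap between them. It was 0.720 in TSA1, 0.547 in AHP1, 0.501 in TRX1, 0.429 in TRX2 and 0.303 in TRR1, and 0.288 in TSA2, 0.202 in PRX1, 0.153 in TRX3, 0.140 in DOT5 and 0.133 in TRR2, with a median of 0.139 over 5597 genes. TSA2 thus had a codon index near that of TRR1 at a far lower input level.

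**Figure D1:**
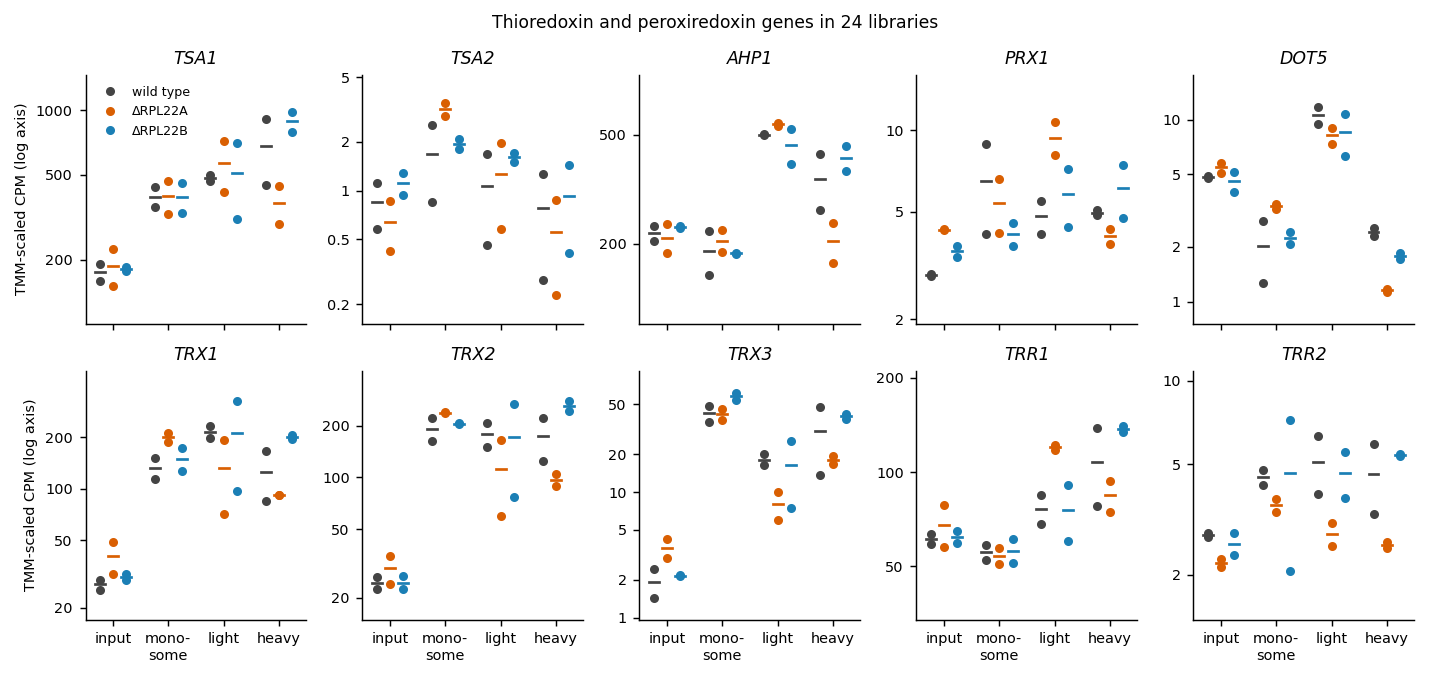
TMM-scaled CPM of each of the 10 genes (log axis) in input, monosome, light polysome and heavy polysome RNA. Points are single libraries, 2 for each strain and pool, and short bars are their means. The 3 thioredoxins lie above input in every fraction library, while DOT5 is high only in light polysomes.

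Relative to most other genes, the thioredoxins were higher in ribosome-bearing fractions than in input. In wild-type monosomes 4 of the 10 genes were called higher than in input and 1 was called lower, against 17.2% and 13.6% of the 5380 genes tested. In wild-type light polysomes 6 were called higher and 0 lower, against 20.8% and 13.6% of all genes. In wild-type heavy polysomes 4 were called higher and 0 lower, against 7.01% and 3.25%. TRX1, TRX2, TRX3 and TSA1 were the 4 called higher in all 3 fractions, and AHP1 and DOT5 joined them in light polysomes. PRX1 and TRR2 also lay above input in every wild-type fraction library, but without a call.

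TRX1, a cytosolic thioredoxin, had 29.3 and 25.6 CPM in the wild-type input duplicates. It had 114 and 151 CPM in monosomes, 234 and 197 in light polysomes and 166 and 85.1 in heavy polysomes. No fraction library of the wild type overlapped input. The log2 fold changes against input were 2.27 ± 0.45 (SE) in monosomes, 2.97 ± 0.46 in light polysomes and 2.19 ± 0.45 in heavy polysomes (adjusted p from edgeR 3.9e-04, 3.5e-05 and 0.0017). The heavy call rests in part on the first duplicate, without which the change was 1.63 (adjusted p from edgeR 0.0964).

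TRX2, its cytosolic paralogue, had 22.5 and 26.5 CPM in wild-type input. It rose to 163 and 221 CPM in monosomes, 207 and 150.5 in light polysomes and 221 and 125 in heavy polysomes. These were increases of 7.82-fold, 7.32-fold and 7.08-fold (log2 2.97 ± 0.46, 2.87 ± 0.46 and 2.82 ± 0.46 SE, adjusted p from edgeR 2.4e-05, 3.9e-05 and 1.1e-04). Each call held when any 1 of the compared libraries was left out. TRX2 differed from TRX1 in showing nearly the same fold change in all 3 fractions, a comparison that was not tested.

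TRX3, the mitochondrial thioredoxin, was scarce in wild-type input at 2.43 and 1.45 CPM (24 and 10 counts). It reached 36.5 and 48.2 CPM in monosomes, 20 and 16.4 in light polysomes and 47.4 and 13.8 in heavy polysomes. The increases were 20.9-fold, 9.16-fold and 15.2-fold (log2 4.39 ± 0.51, 3.20 ± 0.52 and 3.92 ± 0.51 SE, adjusted p from edgeR 1.1e-06, 4.4e-05 and 9.6e-06), and all 3 calls held with any 1 library left out. In the monosome comparison TRX3 stood at percentile 99.85 of the tested genes with an annotated coding length, in light polysomes at 99.7 and in heavy polysomes at 99.8.

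TRX1, TRX2 and TRX3 were above input in every fraction of the deletion strains as well, and all but 2 of these changes, both in ΔRPL22A polysomes, were called. In ΔRPL22A monosomes 4 genes were called higher than in input and 0 lower (8.23% and 5.56% of all genes), in light polysomes 6 and 0 (17.2% and 8.42%), and in heavy polysomes 2 and 1 (9.93% and 6.91%). In ΔRPL22B the counts were 4 and 0 in monosomes (16.7% and 12.8%), 6 and 0 in light polysomes (20.7% and 12.4%), and 5 and 1 in heavy polysomes (10.5% and 5.95%). Monosome increases of TRX1, TRX2 and TRX3 were 2.31 ± 0.44, 2.997 ± 0.46 and 3.51 ± 0.46 (log2 ± SE) in ΔRPL22A and 2.29 ± 0.45, 3.07 ± 0.46 and 4.74 ± 0.50 in ΔRPL22B, all called. Heavy polysome increases were 1.19 ± 0.43, 1.71 ± 0.44 and 2.29 ± 0.46 in ΔRPL22A, where TRX1 missed the threshold (adjusted p from edgeR 0.0559). In ΔRPL22B they were 2.72 ± 0.45, 3.41 ± 0.46 and 4.20 ± 0.49, all called and all held with any 1 library left out.

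In light polysomes of the deletion strains the thioredoxin duplicates were far apart. TRX1 had 193 and 70.85 CPM in the ΔRPL22A duplicates, from input values of 48.5 and 31.8. In ΔRPL22B it had 96.5 and 328 CPM, from 31.8 and 29.3. In both strains every light library still lay above every input library. The log2 changes against input were 1.72 ± 0.44 (SE) for TRX1, 1.92 ± 0.44 for TRX2 and 1.16 ± 0.47 for TRX3 in ΔRPL22A, the last not called (adjusted p from edgeR 0.0684). In ΔRPL22B they were 2.79 ± 0.45, 2.81 ± 0.45 and 2.90 ± 0.48, all called. In ΔRPL22A the TRX1 call was lost without input replicate 2 (adjusted p from edgeR 0.103) or light replicate 1 (log2 change 0.82, 0.273), and the TRX2 call likewise (0.0752 and, with a log2 change of 1.02, 0.168). The TRX2 call in ΔRPL22A heavy polysomes was lost without input replicate 2 or heavy replicate 1 (adjusted p from edgeR 0.0747 and 0.0669).

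Across the whole transcriptome, 6 libraries correlated with a library of another pool within 0.032 of their correlation with their own duplicate. 4 of them, singled out in earlier work on these data, were left out together in a further fit, and 3 of those 4 are fractions that bear on these values. The second wild-type heavy library correlated at 0.922 with its duplicate and at 0.905 with a wild-type input library. ΔRPL22A light replicate 2 (0.960 with its duplicate) correlated at 0.936 with ΔRPL22A input replicate 1 (0.952 with its own duplicate), and ΔRPL22B light replicate 1 (0.923) at 0.891 with a ΔRPL22B input library. In each such fraction library the thioredoxins lay nearer to input than in its duplicate. The other 2 are both ΔRPL22A monosome libraries, which correlated at 0.923 and 0.924 with ΔRPL22A light replicate 1 (0.954 with each other). Without those 4 libraries the wild-type heavy increases of TRX1, TRX2 and TRX3 were 2.59, 3.18 and 4.55 on the log2 scale, and the light increases were 2.60, 2.77 and 1.74 in ΔRPL22A and 3.42, 3.44 and 3.54 in ΔRPL22B. These increases are larger because the fraction libraries left out were those in which the thioredoxins lay nearer to input. They are therefore no check on the calls, and a single library remained in each of these fractions. Leaving out all 6, an alternative chosen after seeing the data, gave wild-type heavy increases of 2.59, 3.18 and 4.55. Why these libraries resemble another pool was not tested.

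**Figure D2:**
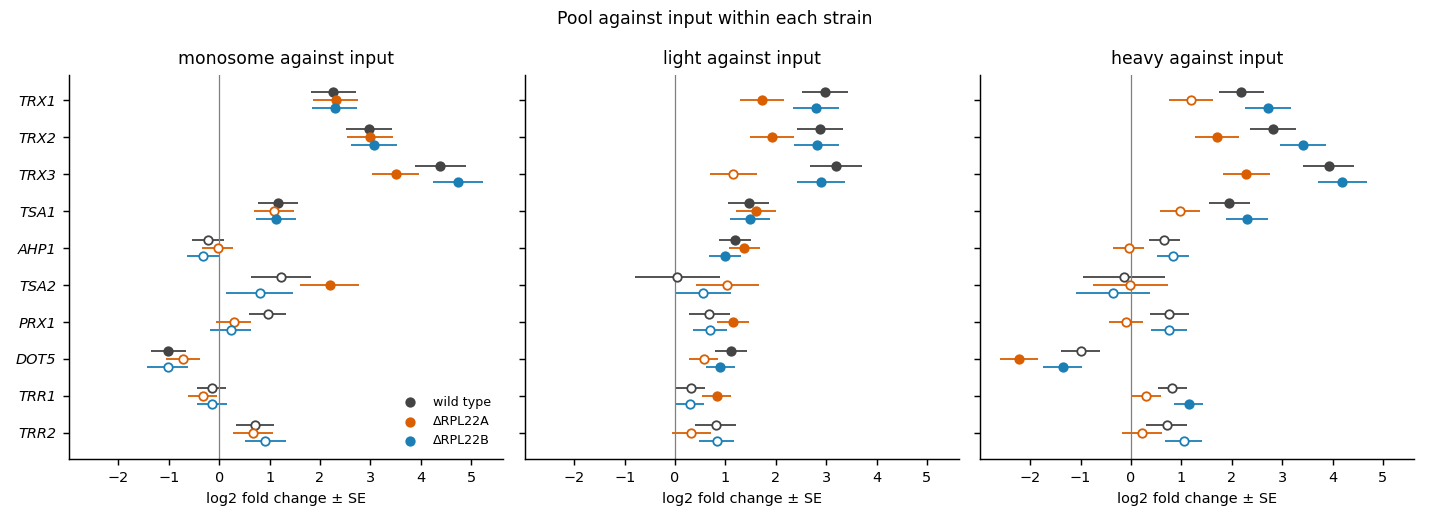
Log2 fold change of each gene in a fraction against input, within each strain, with its standard error from edgeR. Filled points were called at an adjusted p under 0.05 and open points were not. TRX1, TRX2 and TRX3 are the 3 rows farthest to the right in monosomes and heavy polysomes of each strain, and in light and heavy polysomes their ΔRPL22A points lie to the left of those of the other strains.

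Short coding sequences as a class were enriched in monosomes and light polysomes, so the thioredoxin values were set beside those of genes of like length. Over 5298 genes with a coding length, the Spearman correlation of length with the wild-type log2 change was -0.44 in monosomes, -0.73 in light polysomes and -0.0069 in heavy polysomes, a description across genes that share the same libraries. Among the 376 genes under 400 coding bases, which include the 3 thioredoxins, the median log2 change was 1.29 in monosomes, with 49.7% called higher. It was 2.32 in light polysomes, with 82.2% called higher, and -0.01 in heavy polysomes, with 15.2% called higher. The light polysome increase is thus the common behaviour of genes this short, and the heavy polysome increase is not.

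Within that length class, TRX1, TRX2 and TRX3 stood at percentiles 75.2, 85.9 and 98.4 of the other 375 genes in monosomes and at 90.4, 86.1 and 97.1 in light polysomes. In heavy polysomes they stood at 92.3, 96.0 and 98.7. TSA1, among 748 other genes of 400 to under 700 coding bases, was at percentile 71.3 in monosomes, 45.45 in light polysomes and 95.3 in heavy polysomes. AHP1, in the same class, was at 22.5, 35.8 and 74.7, and DOT5 at 5.61, 31.8 and 18.05. The light polysome increases of AHP1 and DOT5 were therefore below the median of genes of their length, which was 1.55.

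**Figure D3:**
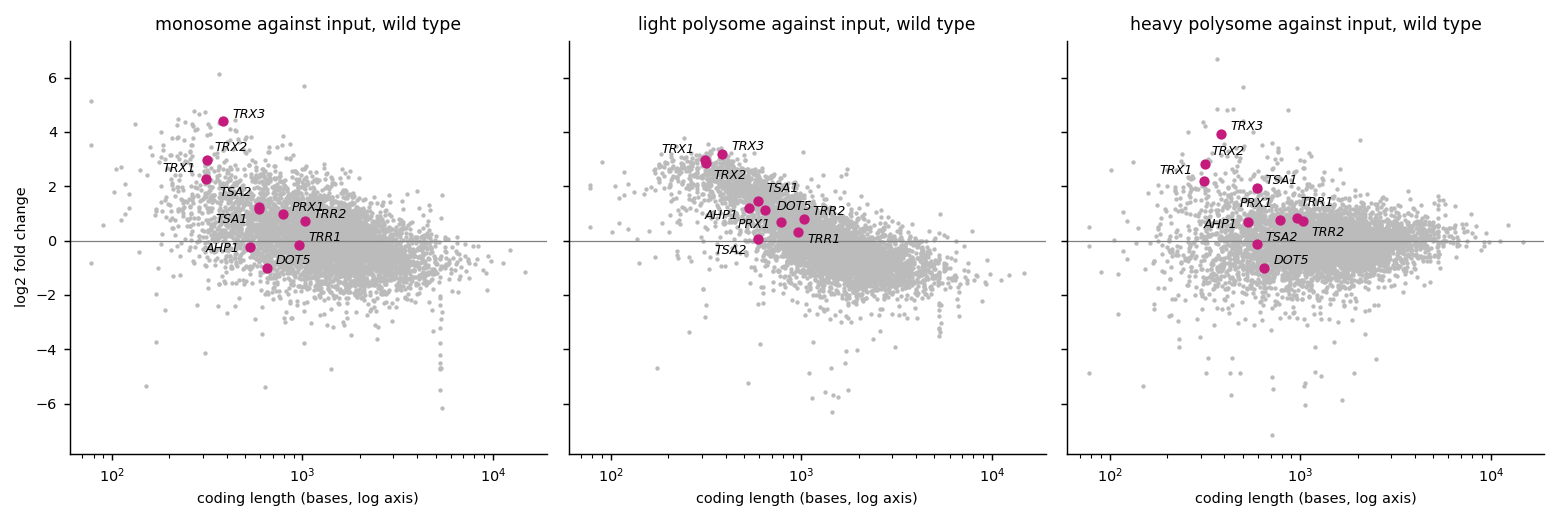
Wild-type log2 fold change against input (vertical axis) by coding length (bases, log axis) for 5298 genes in grey, with the 10 genes in colour. Short genes rise with the cloud in monosomes and light polysomes, while in heavy polysomes the cloud is level with length and TRX1, TRX2, TRX3 and TSA1 lie above it.

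TSA1, the most abundant cytosolic peroxidase of the TSA pair, rose in every fraction of the wild type. It had 192 and 159 CPM in input, 354 and 436 in monosomes, 466 and 499.5 in light polysomes and 912 and 448 in heavy polysomes. Every fraction library lay above both input libraries. The log2 changes were 1.17 ± 0.40 (SE), 1.46 ± 0.40 and 1.95 ± 0.41 (adjusted p from edgeR 0.0271, 0.0058 and 0.0022). The monosome call was lost whichever of its 4 libraries was left out (0.0569 to 0.159), the light call without input replicate 2 (0.0542), and the heavy call without heavy replicate 1 (log2 change 1.35, 0.128).

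In ΔRPL22B TSA1 rose by 1.13 ± 0.40 (log2 ± SE) in monosomes, 1.49 ± 0.40 in light polysomes and 2.30 ± 0.41 in heavy polysomes. The heavy value came from 796.5 and 981 CPM against 185 and 177 in input (adjusted p from edgeR 2.5e-04) and held with any 1 library left out. The monosome call was lost without ΔRPL22B input replicate 1 or 2 or monosome replicate 1 (adjusted p from edgeR 0.126, 0.150 and 0.231), and the light call without input replicate 2 or light replicate 2 (0.0547 and, with a log2 change of 0.79, 0.189). In ΔRPL22A only the light change was called, at 1.60 ± 0.40 (adjusted p from edgeR 0.0047), and it was lost without input replicate 2 (0.101) or light replicate 1 (0.114). There the heavy libraries had 295 and 445 CPM against 224 and 151 in input, a log2 change of 0.98 ± 0.40 (0.0908). TSA1 was higher in heavy polysomes than in monosomes in ΔRPL22B (1.17 ± 0.40, 0.0471), a call that was lost whichever of the 4 libraries was left out (0.0888 to 0.258).

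AHP1, a peroxiredoxin with a preference for alkyl hydroperoxides, followed another course. In the wild type it had 231 and 205 CPM in input, 153 and 222 in monosomes, 501 and 499 in light polysomes and 425 and 267 in heavy polysomes. Monosomes overlapped input, and light polysomes lay above it with duplicates that nearly coincided. The log2 changes were -0.22 ± 0.31 (SE) in monosomes, 1.197 ± 0.32 in light polysomes and 0.67 ± 0.31 in heavy polysomes, and only the light change was called (adjusted p from edgeR 0.0040). It held with any 1 library left out.

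The light polysome increase of AHP1 recurred in both deletion strains. It was 1.38 ± 0.32 (log2 ± SE) in ΔRPL22A, where the light libraries had 552 and 539 CPM (adjusted p from edgeR 0.0027), and 0.99 ± 0.31 in ΔRPL22B, with 390.0 and 523 CPM (0.0162). The ΔRPL22A call was lost without input replicate 2 (0.0726), and the ΔRPL22B call without either input library or light replicate 2 (0.0943 to 0.137). Heavy polysomes exceeded monosomes for AHP1 in the wild type by 0.89 ± 0.32 (adjusted p from edgeR 0.0437) and in ΔRPL22B by 1.15 ± 0.32 (0.0152). The first of these was lost without either monosome library or heavy replicate 1 (0.0540 to 0.334), and the second without either monosome library or heavy replicate 1 (0.0888 to 0.111).

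DOT5, the nuclear peroxiredoxin, was the only member called lower than input in any fraction. Wild-type input had 4.76 and 4.92 CPM, monosomes 2.79 and 1.27, light polysomes 9.43 and 11.8 and heavy polysomes 2.54 and 2.29. The light libraries lay above input and those of the other fractions below it. The log2 changes were -1.01 ± 0.35 (SE) in monosomes, 1.11 ± 0.31 in light polysomes and -0.996 ± 0.38 in heavy polysomes, the last not called (adjusted p from edgeR 0.0293, 0.0066 and 0.0989). With 3 to 47 counts per wild-type library, the monosome call was lost without either input library or monosome replicate 2 (0.0916 to 0.138) and the light call without input replicate 1 or light replicate 2 (0.0501 and 0.0618).

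In heavy polysomes DOT5 was lower than in input in both deletion strains. ΔRPL22A had 1.17 and 1.14 CPM against 5.80 and 5.12 in input, a fall of 4.67-fold (log2 -2.22 ± 0.37 SE, adjusted p from edgeR 3.2e-04) that held with any 1 library left out. ΔRPL22B had 1.725 and 1.85 CPM against 4.02 and 5.155, a log2 change of -1.35 ± 0.39 (0.0167) that was lost without input replicate 2 or either heavy library (0.0965 to 0.129). In ΔRPL22A the heavy polysome level was also below that of monosomes, by a log2 change of -1.50 ± 0.43 (adjusted p from edgeR 0.0111). That call was lost without monosome replicate 1 (0.0657) or heavy replicate 1 (0.101). Light polysomes of ΔRPL22B were above input by 0.89 ± 0.29 (0.0163), a call lost without input replicate 1 (0.150) or light replicate 1 (log2 change 0.45, 0.330) and also without the 4 libraries that resembled another pool or all 6 (0.284 and 0.288).

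PRX1, the mitochondrial peroxiredoxin, and TSA2 had few called changes, each in ΔRPL22A. PRX1 had 2.94 and 2.89 CPM in wild-type input and 4.14 and 8.89 in monosomes, a log2 change of 0.96 ± 0.37 (SE) just above the threshold (adjusted p from edgeR 0.0509). Its called change was in ΔRPL22A light polysomes, with 10.7 and 8.09 CPM against 4.31 and 4.27 in input (1.14 ± 0.32, adjusted p from edgeR 0.0092). It was lost without input replicate 2 (0.0777) or light replicate 1 (0.165). TSA2 was called in ΔRPL22A monosomes, with 2.90 and 3.46 CPM (18 and 12 counts) against 0.862 and 0.427 in input (11 and 4 counts), a log2 change of 2.19 ± 0.58 (0.0100). It was lower in ΔRPL22A heavy polysomes (9 counts and 1 count) than in monosomes by -2.20 ± 0.63 (0.0111). Both TSA2 calls were lost in 3 of the 4 fits that left out 1 library, without input replicate 2 or either monosome library for the first (0.0625 to 0.0933) and without either monosome library or heavy replicate 2 for the second (0.0518 to 0.0622).

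Of the reductases, TRR1 followed neither the thioredoxins nor the short genes. TRR1, the cytosolic reductase, had 63.6 and 59.0 CPM in wild-type input, 52.55 and 58.4 in monosomes, 68.5 and 84.3 in light polysomes and 138 and 78.0 in heavy polysomes. Monosome libraries lay just below input and polysome libraries above it. None of the 3 changes against input was called (log2 -0.15 ± 0.29, 0.31 ± 0.29 and 0.82 ± 0.29 SE, adjusted p from edgeR 0.728, 0.418 and 0.0684). The rise from monosomes to heavy polysomes was called in the wild type at 0.96 ± 0.29 (0.0185) and in ΔRPL22B at 1.29 ± 0.29 (0.0042), where heavy libraries had 134 and 140.5 CPM against 61.1 and 51.3 in monosomes. The wild-type call was lost without either monosome library or heavy replicate 1 (log2 change 0.50 without the latter, 0.0638 to 0.286), and the ΔRPL22B call without monosome replicate 2 (0.0601).

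TRR1 was also above input in ΔRPL22B heavy polysomes (1.15 ± 0.29, log2 ± SE, adjusted p from edgeR 0.0062) and in ΔRPL22A light polysomes (0.82 ± 0.28, 0.0326). The first call was lost without either input library or heavy replicate 2 (0.0508 to 0.0765), and the second without input replicate 2 or either light library (0.0922 to 0.279). TRR2, the mitochondrial reductase, had 5 to 53 counts per library. It was not called in any pool comparison, with log2 changes of -0.45 to 1.04 over the 12. In wild-type input it had 2.83 and 2.75 CPM, and in the other wild-type libraries 3.31 to 6.32.

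Heavy polysomes set directly against monosomes gave 2 genes called higher and 0 called lower of the 10 in the wild type (10.3% and 12% of all genes), 0 and 4 in ΔRPL22A (12.6% and 13.1%), and 3 and 0 in ΔRPL22B (7.64% and 7.38%). Here the thioredoxins showed no called change in the wild type, at -0.08 ± 0.43 (log2 ± SE) for TRX1, -0.15 ± 0.42 for TRX2 and -0.46 ± 0.42 for TRX3. In ΔRPL22A TRX2 and TRX3 were lower in heavy polysomes than in monosomes. TRX2 had 105 and 89.6 CPM against 238.5 and 235.7, a log2 change of -1.29 ± 0.43 (adjusted p from edgeR 0.0273). TRX3 had 16.7 and 19.3 CPM against 37.3 and 46.1, a change of -1.22 ± 0.42 (0.0328). Both calls were lost whichever of the 4 libraries was left out (0.0831 to 0.139 for TRX2 and 0.0757 to 0.194 for TRX3). Among the genes under 400 coding bases the median of this comparison in ΔRPL22A was -1.34, with 53.7% called lower.

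2 ratios within a library changed with the pool and, unlike the levels, need no scaling between libraries. They were chosen after their values were seen and are given as a description with no test. TRX1 exceeded TRX2 per coding length in 5 of 6 input libraries (0.977 to 1.435) and in 6 of 6 light libraries (1.14 to 1.32). It fell short of TRX2 in 6 of 6 monosome libraries (0.616 to 0.912) and in 5 of 6 heavy libraries (0.685 to 1.035). AHP1 exceeded TSA1 in 6 of 6 input libraries (1.17 to 1.46) and in 4 of 6 light libraries (0.827 to 1.44), and fell short of it in all 6 monosome libraries (0.445 to 0.760) and all 6 heavy libraries (0.419 to 0.663). The order of the leading pair of peroxiredoxins and of the cytosolic thioredoxins thus depended on the fraction, in all 3 strains.

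**Figure D4:**
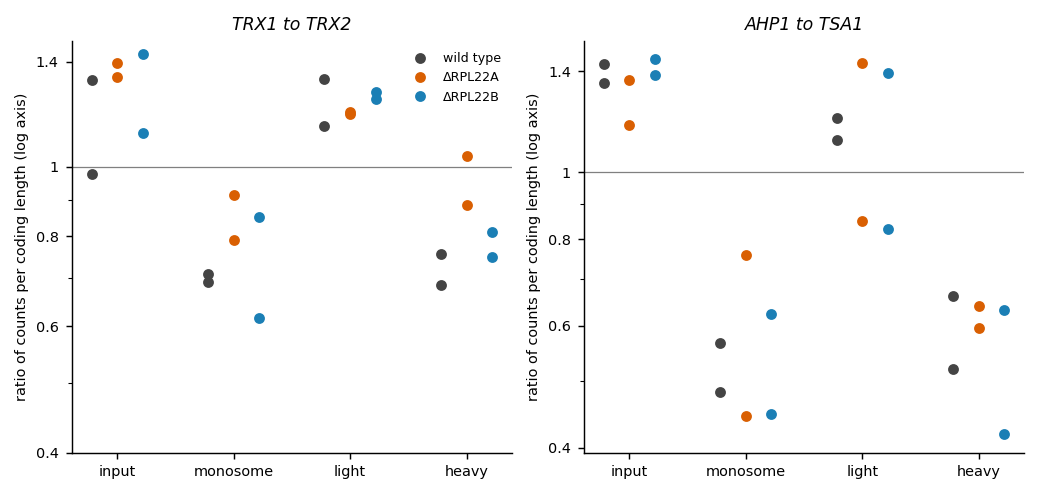
Ratio of counts per coding length within each library (log axis), TRX1 to TRX2 on the left and AHP1 to TSA1 on the right, by pool and strain, with 1 point per library. The line marks equality. Both ratios lie mostly above it in input and light polysomes and below it in monosomes, and AHP1 to TSA1 lies below it in all 6 heavy polysome libraries.

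Between strains the input levels of the 10 genes were close. No gene was called in input for ΔRPL22A against the wild type (4.65% of all genes were), ΔRPL22B against the wild type (0.335%) or ΔRPL22A against ΔRPL22B (5.26%). In each of these, 0 of the 10 had an unadjusted p under 0.05 by edgeR's quasi-likelihood test, and DESeq2 called 0. The median log2 change of the 10 was 0.16, 0.06 and 0.19, beside -0.02, 0.00 and -0.03 over all genes tested. The farthest single values were those of TRX3, at 0.87 in ΔRPL22A against the wild type and 0.74 against ΔRPL22B. Its input duplicates were 4.23 and 2.99 CPM in ΔRPL22A, 2.43 and 1.45 in the wild type and 2.16 and 2.18 in ΔRPL22B, and the ΔRPL22A duplicates lay above all others.

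In monosomes and light polysomes the strain comparisons also gave 0 calls among the 10. Of all genes, 5.48% were called in monosomes for ΔRPL22A against the wild type, 0.353% for ΔRPL22B against the wild type and 3.10% for ΔRPL22A against ΔRPL22B. In light polysomes these shares were 5.39%, 0.353% and 7.19%. At an unadjusted p under 0.05 from edgeR, 0 of the 10 passed in monosomes, and in light polysomes 3, 0 and 3 passed (19.3%, 4.83% and 21.9% of all genes), while DESeq2 called 0 throughout. The shares of the 10 in light polysomes were thus near those of all genes. The 3 in ΔRPL22A against the wild type were PRX1 (1.02 ± 0.37 log2, SE), TRX3 (-1.17 ± 0.46) and TRR1 (0.66 ± 0.29), with adjusted p from edgeR of 0.114, 0.144 and 0.201. TRR1 had 118.0 and 122 CPM in ΔRPL22A light polysomes against 68.5 and 84.3 in the wild type and 60.45 and 91.2 in ΔRPL22B, so the ΔRPL22A libraries lay above all others.

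In heavy polysomes the fitted log2 changes of ΔRPL22A against either other strain were below 0 for all 10 genes. Against the wild type they ran from -1.05 to -0.26 with a median of -0.77, where 2617 of all 5380 genes lay below 0, and the duplicates of TSA2, TRX1, TRX3 and TRR1 overlapped. Against ΔRPL22B they ran from -1.42 to -0.35 with a median of -1.04, where 2689 of all genes lay below 0. Both comparisons use the same ΔRPL22A libraries. The 10 genes have at most 1029 coding bases, and heavy polysome changes went with coding length differently in each strain. The Spearman correlation of length with the change against input was 0.34 in ΔRPL22A, -0.0069 in the wild type and -0.16 in ΔRPL22B. For genes of 400 to under 700 bases the median log2 change was -0.38, 0.01 and 0.14 in that order. For genes under 400 bases, the class of the 3 thioredoxins, it was -0.15, -0.01 and 0.45. For genes of 700 to under 1100 bases it was -0.24, -0.03 and 0.02. The part of length in the strain differences was not tested. Few of the strain differences of the 10 genes passed the test. Against the wild type 0 of 10 were called by edgeR or by DESeq2 (3.29% of all genes were called by edgeR), and TSA1, AHP1 and DOT5 had an unadjusted p under 0.05, as did 16.3% of all genes. Against ΔRPL22B 1 of 10 was called lower (2.94% of all genes) and 7 had an unadjusted p under 0.05, as did 19.3% of all genes, while DESeq2 called 3. ΔRPL22B against the wild type gave 0 calls (0.316%) and 0 at an unadjusted p under 0.05 by edgeR, 0 calls by DESeq2, and a median of 0.31.

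The called gene was TRX2. Its heavy polysome level was 105 and 89.6 CPM in ΔRPL22A, 278 and 244 in ΔRPL22B and 221 and 125 in the wild type. The ΔRPL22A libraries lay below all others. Against ΔRPL22B the log2 change was -1.42 ± 0.43 (SE), a 2.68-fold difference (adjusted p from edgeR 0.0489). The call was lost whichever of the 4 libraries was left out, while the log2 change stayed at -1.54 to -1.32. Each of those fits leaves a single library in 1 group. With the replicate number as a block the call was lost as well (-1.42, adjusted p from edgeR 0.0578).

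Other members had changes of like size against ΔRPL22B that did not pass. TSA1 had 295 and 445 CPM in ΔRPL22A, 796.5 and 981 in ΔRPL22B and 912 and 448 in the wild type. Its log2 change against ΔRPL22B was -1.27 ± 0.40 (SE, adjusted p from edgeR 0.0619). AHP1 had 169.5 and 238 CPM against 453 and 369 in ΔRPL22B, a change of -1.01 ± 0.32 (0.0568). TRX1, at 91.9 and 91.9 CPM against 207 and 196, changed by -1.13 ± 0.43 (0.124). TRX3 (-1.16 ± 0.42), TRR2 (-1.06 ± 0.40) and TRR1 (-0.71 ± 0.29) had an unadjusted p under 0.05 as well, and PRX1, DOT5 and TSA2 did not. In 9 of the 10 genes the ΔRPL22A and ΔRPL22B duplicates did not overlap, which held with ΔRPL22A lower for 26.3% of all genes tested.

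The number of calls in this pool depended on the libraries in the fit. Without the 4 libraries that resembled another pool, 7 of the 10 were called lower in ΔRPL22A than in ΔRPL22B (TRX1, TRX2, TRX3, TSA1, AHP1, TRR1 and TRR2) although none of the 4 is among those compared, since the spread pooled over all groups became smaller. Over all genes the share called lower in that comparison went from 2.94% to 7.73%. TRX2, for instance, kept its change of -1.42 while its SE went from 0.43 to 0.23 (adjusted p from edgeR 7.0e-06). In the same fit 5 were called lower than in the wild type (TRX1, TRX2, TRX3, TSA1 and AHP1), against the single wild-type heavy library that remained, which is assumed to vary like the other groups, while the share of all genes called lower went from 1.9% to 5.61%. Without all 6 libraries that resembled another pool the same 7 and 5 genes were called, beside 7.97% and 5.89% of all genes. Both of these fits leave out the second wild-type heavy library, in which TRX3 had 13.8 CPM, below both ΔRPL22A libraries (16.7 and 19.3). Against the remaining wild-type library, at 47.4 CPM, the log2 change of TRX3 was -1.41 without the 4 libraries and -1.41 without all 6. In the fit of all 24 libraries no member's change against the wild type was below -1.05.

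**Figure D5:**
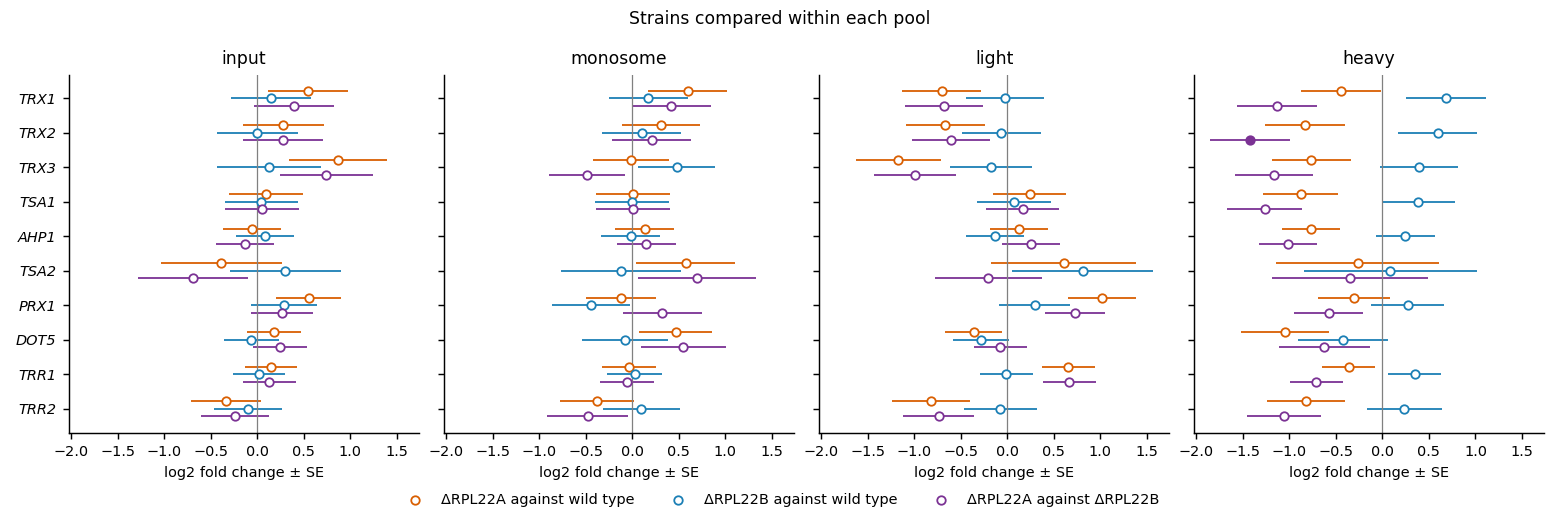
Log2 fold change of each gene between strains within each pool, with its standard error from edgeR. The filled point, TRX2 in heavy polysomes, was called at an adjusted p under 0.05 and open points were not. In heavy polysomes all 20 changes of ΔRPL22A against the other strains lie below 0.

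Whether a fraction's change against input itself differed between strains was tested as an interaction. None of the 90 tests (10 genes, 3 fractions, 3 pairs of strains) was called by edgeR's quasi-likelihood test or by DESeq2. Over all genes the share called was 0% in 8 of these 9 comparisons and 0.0558% in the light polysome comparison of ΔRPL22A with the wild type. At an unadjusted p under 0.05, 2 of the 10 passed in light and in heavy polysomes of ΔRPL22A against the wild type, 1 in light and 5 in heavy polysomes of ΔRPL22A against ΔRPL22B, and 0 in the other 5 comparisons. Of all genes, 7.75%, 6.99%, 5.3% and 12.3% passed in the first 4. For TRX3 the ΔRPL22A change was smaller than that of the wild type by a log2 difference of -2.04 ± 0.70 (SE) in light and -1.63 ± 0.68 in heavy polysomes (adjusted p from edgeR 0.473 and 0.707). For TRX2 in heavy polysomes it was -1.11 ± 0.61 against the wild type (0.726) and -1.70 ± 0.61 against ΔRPL22B (0.308). With the compared groups fitted alone, TRX1, TRX2 and TRX3 were called in heavy polysomes for ΔRPL22A against ΔRPL22B, at -1.57 ± 0.36, -1.74 ± 0.37 and -1.96 ± 0.41 (adjusted p from edgeR 0.0162, 0.0067 and 0.0057), where 2.7% of all genes were called. In the fit of all 24 libraries the thioredoxin changes in ΔRPL22A polysomes are thus not shown to differ from those of the other strains, and for heavy polysomes against ΔRPL22B the call depends on the groups fitted.

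The genes around this pathway were followed in 4 lists of 36 genes in all: regulators of the peroxide response, clients of thioredoxin with the repair of peroxiredoxins, suppliers of NADPH, and other Yap1 targets. In input 2 of the 36 were called higher and 2 lower in ΔRPL22A than in the wild type (2.16% and 2.49% of all genes), 0 and 0 in ΔRPL22B (0.149% and 0.186%), and 1 and 2 in ΔRPL22A against ΔRPL22B (2.32% and 2.94%). The list medians in those comparisons were -0.08, 0.03 and -0.02, near those of all genes (-0.02, 0.00 and -0.03). In ΔRPL22B against the wild type, 0 of the 36 had an unadjusted p under 0.05 by edgeR's quasi-likelihood test and DESeq2 called 0. YAP1 and SKN7, the transcription factors of the peroxide response, were called in no strain comparison of any pool. YAP1 had 8.805 and 8.68 CPM in wild-type input, 5.17 and 11.7 in ΔRPL22A and 10.5 and 11.04 in ΔRPL22B. SRX1, the sulfiredoxin that repairs overoxidised peroxiredoxins, was near the limit of detection in input at 0 to 0.627 CPM and was not called in any strain comparison either.

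Of the genes of these lists that were called in input, RNR3, a subunit of ribonucleotide reductase, which takes its electrons from thioredoxin, was lower in ΔRPL22A. It had 0.313 and 0.534 CPM there, 1.72 and 1.88 in the wild type and 1.86 and 1.89 in ΔRPL22B, a log2 change of -2.08 ± 0.56 (SE) against the wild type (adjusted p from edgeR 0.0279). ALD6, an aldehyde dehydrogenase that yields NADPH, had 48.1 and 50.7 CPM in ΔRPL22A against 81.8 and 116 in the wild type and 116 and 103 in ΔRPL22B. Its change was -0.999 ± 0.29 (SE) against the wild type (adjusted p from edgeR 0.0428). RNR3 and ALD6 were also called lower than in ΔRPL22B, and 6 and 9 of 12 alternatives kept those calls. The alternatives given below for these genes are those of the wild-type comparison. IDP1, a mitochondrial NADP-dependent isocitrate dehydrogenase, was higher at 31.7 and 25.2 CPM against 14.9 and 15.3 in the wild type (0.92 ± 0.27, 0.0441). CCP1, the mitochondrial cytochrome c peroxidase, was higher than in ΔRPL22B at 22.5 and 17.5 CPM against 10.3 and 8.79 (1.07 ± 0.30, 0.0350). The ranges over 12 alternatives, 4 of which leave out 1 library each, were 0.0064 to 0.363 for RNR3, 0.0037 to 0.467 for ALD6, 0.0116 to 0.400 for IDP1 and 0.0071 to 0.356 for CCP1 (adjusted p), and each was lost without ΔRPL22A input replicate 1 or either library of the other strain. ALD6 was also lost without ΔRPL22A input replicate 2, with RLE scaling, with the ribosomal DNA entries left out and with the replicate block (0.0863, 0.0558, 0.0583 and 0.0507), RNR3 with DESeq2 (0.0990), and RNR3 and IDP1 without the 4 libraries that resembled another pool (0.164 and 0.110) or all 6 (0.150 and 0.0830).

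POS5, the mitochondrial NADH kinase that supplies NADPH to the mitochondrial set, was the fourth gene called in ΔRPL22A against the wild type. It had 9.56 and 6.83 CPM against 3.24 and 3.18 (log2 1.35 ± 0.34 SE, adjusted p from edgeR 0.0183) and 5.69 and 4.865 in ΔRPL22B. The call was lost without ΔRPL22A input replicate 1 (0.283) or either wild-type input library (0.137 and 0.158). In monosomes POS5 had 10.8 and 12.1 CPM in ΔRPL22A and 16.6 and 14.9 in ΔRPL22B against 3.15 and 1.27 in the wild type. These changes, 2.10 ± 0.39 and 2.57 ± 0.39 (log2 ± SE, adjusted p from edgeR 0.0011 and 1.5e-04), held in every alternative run on them. In heavy polysomes it was also called in both deletions, by 2.33 ± 0.47 (0.0027) and 2.37 ± 0.48 (0.0111). The ΔRPL22A call there was lost without wild-type heavy replicate 2 (0.0951), and the ΔRPL22B call without that library (0.592), without ΔRPL22B heavy replicate 2 (0.189) and without the 4 or 6 libraries that resembled another pool (0.160 and 0.149). POS5 (chrXVI:191406-192650) lies 997 bases upstream of the pheromone gene MF(ALPHA)1 on the same strand. Over 8 libraries a strain, POS5 had 122, 504 and 384 counts in the wild type, ΔRPL22A and ΔRPL22B beside 11, 27891 and 16785 of MF(ALPHA)1. The part of that neighbour in the POS5 count was not tested.

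Over the 12 means of strain and pool, the genes most like the 4 members with the highest mean level were named by the Pearson correlation of log2 CPM, as a description over points that share libraries. For TSA1 they were TIM17 (0.98), ADK1 (0.97) and PST2 (0.96), and for AHP1 GPM1 (0.98), MXR1 (0.96) and FUN14 (0.94). For TRX1 they were ATP17 (0.99), HSP10 (0.98) and RPL26A (0.98), and for TRX2 MDM35 (0.99), RPS31 (0.99) and RPL23A (0.98). The genes nearest to TRX1 and TRX2 have coding lengths of 261 to 459 bases, those nearest to TSA1 and AHP1 of 477 to 744. TRX1 and TRX2 correlated with each other at 0.97 and with TRX3 at 0.87 and 0.96, while TSA1 and TSA2 correlated at 0.08 and AHP1 and TRX3 at 0.00. With TRX1, TRX2, TSA1 and AHP1, TRR2 correlated at 0.79, 0.80, 0.76 and 0.42, from few counts. TRR1 correlated with them at 0.28, 0.24, 0.68 and 0.72.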

How the data were processed

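Whole-number counts of 6369 genes in 24 libraries were used as deposited. Per the submitters' processing notes, the authors used cutadapt 1.4, SAMtools 0.1.19, RSEM 1.2.18 and the sacCer3 genome. The aligner and the treatment of reads that fit several genes are not given in the sources used here. Reads of 2 lanes were merged per library, per the series design. Counts were fitted with edgeR 4.0.16 (R 4.3.3): filterByExpr (minimum count 10), TMM scaling over all rows, 1 mean for each of 12 groups and the quasi-likelihood F-test, tested on simulated data. The spread behind each p-value was estimated jointly from the 12 pairs of duplicates (12 residual degrees of freedom). Duplicates differed by more than sampling noise (chi-square per degree of freedom 1.83 to 34.3). Coordinates and coding lengths come from RefSeq R64. Total counts per library limit precision most for TSA2, DOT5 and TRR2.

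The 10 members and the 4 lists were chosen with earlier results of these data known. The text names the members in every comparison, RPL22A, RPL22B, SRX1, YAP1, SKN7, the listed genes called between strains in input, and the 3 tested genes most like each of the 4 most abundant members. Alternatives were RLE scaling, ribosomal DNA rows left out, no filter, DESeq2 1.42.0, compared groups alone, a replicate block, each library left out, and 4 libraries left out together. 6 libraries left out together was added after seeing the data and gives no value for ΔRPL22A monosomes, both of which it drops. Differences between duplicates were at most weakly shared between compared groups (correlations of -0.40 to 0.21). This cannot settle whether same-numbered libraries came from the same culture. The main fit did not pair them.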

Additional observations from a re-analysis of the deposited data

How the results depend on the processing

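Of the 54 calls among the 10 genes, 24 held in all alternatives and in each fit that left out 1 library. No scaling moved the median of all genes by over 0.1 (log2). The number of the 10 genes called changed by over 1.5 times as follows. For ΔRPL22A against ΔRPL22B in heavy polysomes it went from 1 to 4 with no filter, 6 with the compared groups alone, 3 with DESeq2, 7 without the 4 libraries that resemble another pool and 0 with the replicate block. Over all genes the same comparison went from 289 calls to 360, 707, 275, 763 and 273. For ΔRPL22A against the wild type it went from 0 to 1 with no filter, 1 with the compared groups alone and 2 without the 4 libraries in light polysomes, and to 5 without them in heavy polysomes. Without them it went from 0 to 1 for ΔRPL22A against ΔRPL22B in light polysomes and from 3 to 5 for heavy polysomes against input in ΔRPL22A, and leaving out 6 gave the same counts in these comparisons. Heavy polysomes against monosomes in the wild type went from 2 to 1 with no filter, 0 with the compared groups alone and 1 with the replicate block. With the compared groups alone, light polysomes against input in ΔRPL22B went from 6 to 3 and the interaction of heavy polysomes between ΔRPL22A and ΔRPL22B from 0 to 3 (0 to 145 over all genes). With 1 library left out the counts ran from 0 to 3 for ΔRPL22A against ΔRPL22B in light polysomes, and were 0 throughout in heavy polysomes. They ran from 3 to 5 for wild-type monosomes, 2 to 5 for wild-type heavy polysomes and 0 to 6 for ΔRPL22A light polysomes against input. For heavy polysomes against monosomes they ran from 0 to 2 in the wild type, 0 to 1 in ΔRPL22A and 0 to 2 in ΔRPL22B, and for the light polysome interaction of ΔRPL22A with ΔRPL22B from 0 to 1. Of 5396 refitted values of single genes, 436 changed sign within 1 SE of 0 in either fit and with no call in either. 3 more changed sign by over 1 SE, also with no call. With 1 library left out, TRR2 for ΔRPL22A against ΔRPL22B in monosomes ran from -1.04 to 0.77, the latter without ΔRPL22B monosome replicate 1. TRX1 and TRX2 for the same strains in light polysomes ran from -1.58 to 0.46 and from -1.51 to 0.56, the latter without ΔRPL22B light replicate 2. Apart from the fits with fewer libraries or groups, the cause was not tested.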
